A study of Homo sapiens with 66 samples.

Results

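KMT2A-rearranged acute myeloid leukemia (AML) cell lines were compared with other AML cell lines before any drug was given. The comparison took in the untreated libraries of 10 lines, 30 of the 66 libraries of the series, with 3 libraries for each line summed to 1 value. The 5 KMT2A-rearranged lines were MOLM-13, MV-4-11, MONO-MAC-6, NOMO-1 and THP-1 (15 libraries), and the 5 other lines were F-36P, HL-60, KASUMI-1, NB-4 and OCI-AML3 (15 libraries). Where 5 levels of a class are listed without names, they follow this order. The lines were assigned to the classes by name, from what is known of them, since the sample labels carry no genotype and gene counts cannot show a fusion. OCI-AML2, the 11th line of the series, was left out of both classes and its level is given only as a description. The study calls these cells untreated, and its RNA sequencing methods name no vehicle for them. The cells of 3 wells were pooled for each library.

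KMT2A (formerly MLL) is a histone H3 lysine 4 methyltransferase that keeps developmental genes active in blood progenitors. Translocations join its amino-terminal part, which binds menin and chromatin, to partners of the transcription elongation machinery, and the fusion proteins are known to keep the HOXA cluster and MEIS1 expressed. MV-4-11 is known for a fusion of KMT2A to AFF1, and the other 4 lines of the class for a fusion to MLLT3. Leukemias of this kind are often monocytic. Among the other lines, KASUMI-1 carries RUNX1::RUNX1T1, NB-4 carries PML::RARA, OCI-AML3 is known for a mutated NPM1, HL-60 is promyelocytic and F-36P is erythroid.

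The classes also differed in other ways. The study's overview of the lines classes all 5 KMT2A-rearranged lines as AML M5 and none of the other 5, so the monocytic subtype and the rearrangement cannot be told apart. It classes OCI-AML3, of the other lines, as AML M4, the myelomonocytic subtype, and OCI-AML2 likewise. F-36P, KASUMI-1 and OCI-AML3 were grown with the higher share of serum, all 5 KMT2A-rearranged lines, HL-60 and NB-4 with the lower one. F-36P received granulocyte-macrophage colony stimulating factor and MONO-MAC-6 insulin. Each line is a single established culture, so a class holds 5 lines and not 5 donors sampled at random. Reads on genes numbered 18363855 to 21295862 per library in the KMT2A-rearranged lines and 18261596 to 21304265 in the other lines, and the sums per line 57746691 to 62627327. Levels are given in CPM, the reads of a gene scaled to the total of its line after TMM normalization, which adjusts the totals for differences in RNA composition. CPM is not scaled to gene length, so levels of different genes are not compared. Among 7736 genes with at least 5 CPM in every line, the median coefficient of variation between the 3 libraries of a line was 6.03%, and the 95th percentile was 17.7%.

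The 5 KMT2A-rearranged lines were somewhat more alike than the other lines, with overlapping ranges. The correlation of log2 CPM across genes between a pair of KMT2A-rearranged lines had a median of 0.910 (10 pairs, 0.892 to 0.948). The median was 0.871 between pairs of other lines (10 pairs, 0.838 to 0.919) and 0.879 between the classes (25 pairs, 0.826 to 0.924). On the first principal component, which held 24.2% of the variance, the KMT2A-rearranged lines lay between -56.2 (THP-1) and -10.9 (NOMO-1), and OCI-AML3 lay among them at -44.3. HL-60, KASUMI-1 and NB-4 lay between 35.2 and 51.6 and F-36P at 112.

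**Figure D1:**
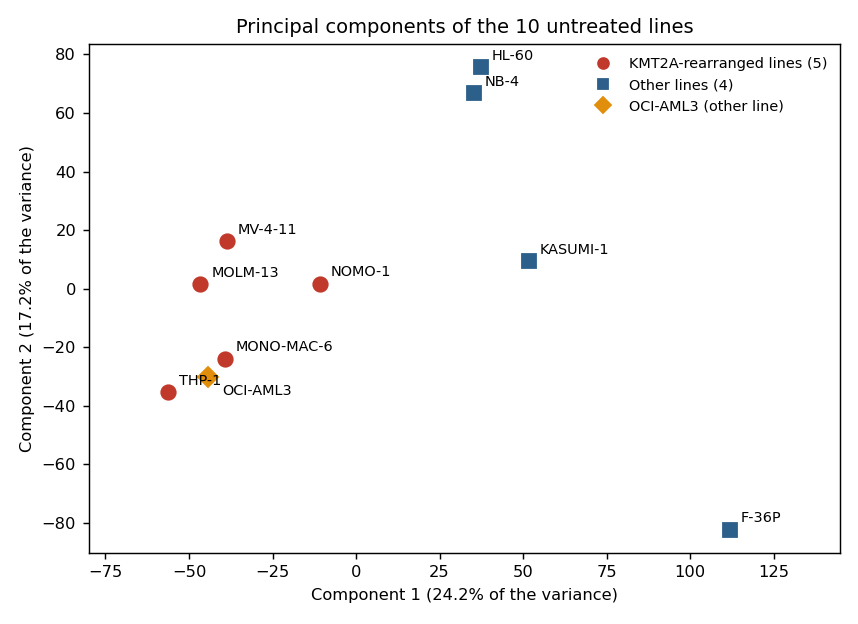
First (horizontal) and second (vertical) principal component of log2 CPM of the 10 untreated lines, 1 point per line, with the share of variance on each axis. Red circles are KMT2A-rearranged lines, blue squares the other lines except OCI-AML3 (orange diamond), which lies at -44.3 on the first component, within the range of the red circles.

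No gene passed the test of the classes. Of 15856 genes tested with edgeR's quasi-likelihood test, 0 had a Benjamini-Hochberg adjusted p below 0.05 with a fold change above 2 (0.0% in each direction), and the smallest adjusted p was 0.149. At an unadjusted p below 0.05 there were 1337 genes (8.43% of those tested), 705 higher in the KMT2A-rearranged lines (4.45%) and 632 lower (3.99%). DESeq2 on the same sums called 191 genes, and limma on the mean log2 CPM of each line called 1. The biological coefficient of variation between lines of a class was 0.832, so the lines of a class differed from each other by a large factor at many genes. The levels below are therefore descriptions of 10 lines, and the adjusted p beside a gene says how far it was from passing.

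For 295 genes the 5 KMT2A-rearranged lines all lay above or all lay below the 5 other lines (1.86% of the genes tested). All 5 lay above at 177 genes (1.12%) and below at 118 (0.744%). The genes above differed more in size. Their median log2 fold change was 2.23, and 140 of 177 (79.1%) exceeded 2-fold. The median was -0.75 for the genes below, and 36 of 118 (30.5%) exceeded 2-fold. The filter on low counts needs reads in only as many lines as a class holds, so genes nearly silent in 1 class are kept. The fold change of such a gene is large and rests on few reads, as at KCNQ3 (log2 8.35) and SCG2 (7.37). How far such genes raised the median of 2.23 was not tested. The median over all tested genes was -0.02. The other line nearest to the KMT2A-rearranged lines was OCI-AML3 at 79 of the 177 genes above and at 37 of the 118 below. On the KMT2A-rearranged side, MONO-MAC-6 was nearest to the other lines most often, at 48 genes above and 33 below.

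Of the 12 higher genes of smallest p, 11 separated the classes, and their levels in the other lines ran from a few reads (KCNQ3, SOX5) to 44.8 to 81.6 CPM (IQGAP3). Over all tested genes 1.12% separated from above. The 12 were picked by p in this same comparison, so their separation follows largely from the choice. MPEG1, which encodes the pore-forming protein perforin-2 of macrophages, was at 15.4, 45.7, 16.01, 10.2 and 10.3 CPM in MOLM-13, MV-4-11, MONO-MAC-6, NOMO-1 and THP-1, and at 0 to 0.323 CPM in the other 5 lines. The class means were 19.6 ± 14.9 against 0.0719 ± 0.141 CPM (SD, n = 5 lines), and the adjusted p was 0.384. CCNA1, the germline A-type cyclin, was at 51.0 in MOLM-13, 85.5 in MV-4-11, 88.0 in MONO-MAC-6, 182 in NOMO-1 and 46.5 in THP-1, against 0.0362 to 5.08 CPM in the other lines, where NB-4 was highest (adjusted p = 0.384). BAZ2B, a bromodomain protein, was at 106, 146, 119.9, 30.2 and 47.2 CPM in the same order, and OCI-AML3 at 29.7 CPM came within 1 CPM of NOMO-1. IQGAP3, a scaffold protein of proliferating cells, was at 99.9 to 168 CPM against 44.8 to 81.6 CPM, a log2 fold change of 1.17 ± 0.21 (SE).

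Of the other 8 higher genes, all but ANXA2R separated the classes. KCNQ3, a voltage-gated potassium channel subunit, was at 4.75, 3.24, 0.35, 1.51 and 15.6 CPM in the KMT2A-rearranged lines, and had 4 reads in all 15 libraries of the other lines. SOX5, a transcription factor of the SOX family, was at 0.32, 0.418, 2.29, 2.36 and 5.63 CPM against 4 reads. RBKS, which phosphorylates ribose, was at 8.06 to 21.0 against 1.11 to 3.13 CPM. ANXA2R, an annexin A2 receptor, did not separate the classes, because MV-4-11 (4.14 CPM) lay below HL-60 (5.32 CPM). The noncoding transcripts PRKAR1B-AS1 (5.18 to 13.4 against 0.615 to 2.17 CPM), MBNL1-AS1 (6.84 to 19.4 against 0.34 to 2.21 CPM) and LINC02986 (1.16 to 4.06 against 0.376 to 0.665 CPM) separated the classes. The sources used here do not say whether reads were counted by strand, so reads of an antisense gene and its partner may not be told apart. GOLGA8R (1.83 to 8.64 against 0.113 to 0.752 CPM) has near-identical copies and its level is uncertain. The smallest p of all belonged to SCG2, a secretogranin below the limit of 1 CPM for these 12, at 1.20, 0.284, 0.717, 1.72 and 0.659 CPM against 1 read in the other 15 libraries (adjusted p = 0.149).

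The 12 lower genes of smallest p were genes expressed in all 10 lines, with log2 fold changes from -0.71 to -1.59, and all 12 separated the classes. Over all tested genes 0.744% separated from below. These 12 too were picked by p in this comparison, so their separation is no separate result. TNKS1BP1, which binds tankyrase, was at 35.01, 31.8, 36.3, 27.2 and 23.3 CPM in the KMT2A-rearranged lines against 159.6, 59.8, 63.4, 93.4 and 70.5 CPM in F-36P, HL-60, KASUMI-1, NB-4 and OCI-AML3. The highest KMT2A-rearranged line lay at 36.3 CPM and the lowest other line at 59.8 CPM (log2 fold change -1.54 ± 0.30, adjusted p = 0.384). EIF2D, a translation initiation factor, varied little within the class, at 68.3 ± 2.32 CPM against 112 ± 22.4 CPM (SD, n = 5 lines). AHCY, which hydrolyses S-adenosylhomocysteine after methylation reactions, was at 239 ± 40.4 against 402 ± 65.0 CPM (n = 5 lines). NPM3, a histone chaperone of the nucleolus, was at 53.9 ± 17.2 against 139 ± 43.3 CPM, and OCI-AML3 (78.2 CPM) lay just above MOLM-13 (76.7 CPM).

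The other 8 of the 12 are given by their range over the lines of each class. PPRC1, a coactivator of nuclear genes for mitochondria, was at 76.2 to 122 against 131 to 281 CPM. MMS19, which delivers iron-sulfur clusters to DNA repair and replication enzymes, was at 89.9 to 132 against 155 to 299.9 CPM. AMER1, a regulator of WNT signaling, was at 16.3 to 29.8 against 35.6 to 75.2 CPM. PPA1, an inorganic pyrophosphatase, was at 140.3 to 190.0 against 217 to 404 CPM, and PDZD8, a protein of membrane contact sites, at 35.6 to 55.5 against 63.5 to 258 CPM. The zinc finger genes ZNF786 (3.35 to 4.92 against 7.74 to 15.8 CPM) and ZNF282 (27.8 to 46.4 against 59.8 to 86.6 CPM) and the gene TMCO6 (14.3 to 28.1 against 33.7 to 47.2 CPM) completed the 12. Outside them, and chosen after their values were seen, IGF2BP3, an RNA-binding protein of fetal tissues, was at 21.3, 0.0501, 3.31, 0.239 and 0.203 CPM in the KMT2A-rearranged lines and 49.8 to 101 CPM in the other lines. GAPDH, a glycolytic enzyme often used as a reference gene, was at 1594 to 4324 against 5112 to 6381 CPM (log2 fold change -0.90).

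**Figure D2:**
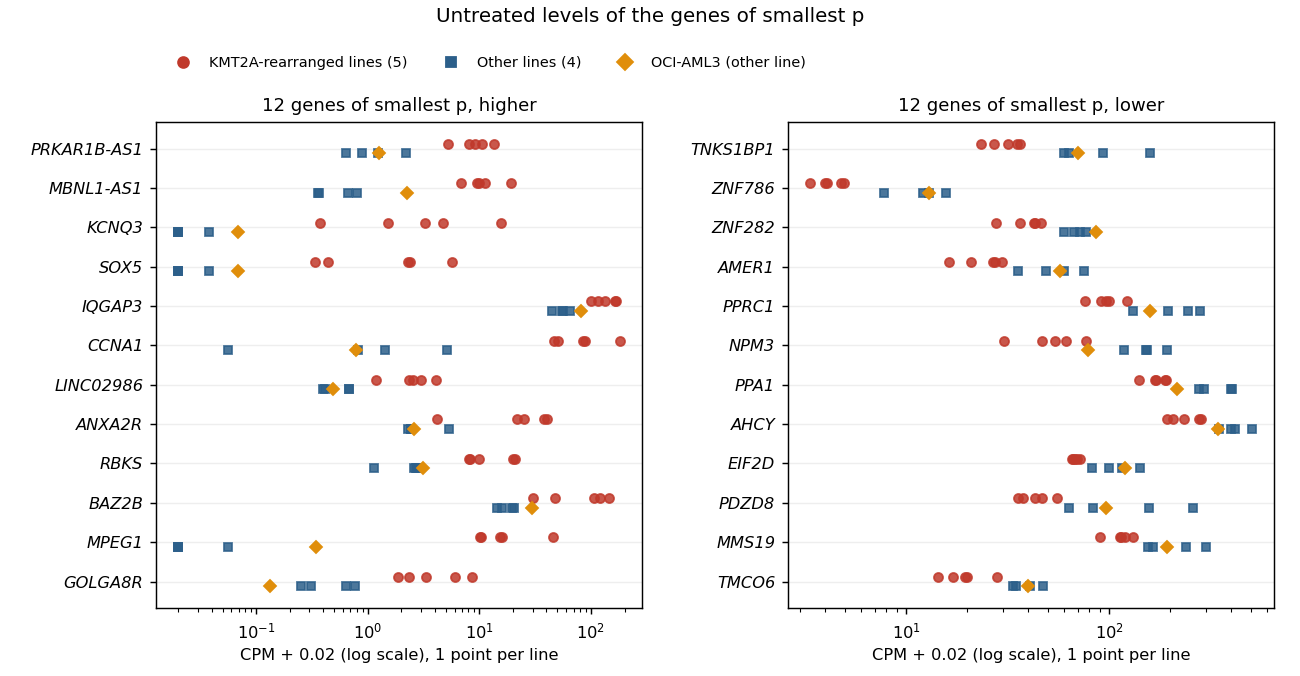
CPM plus 0.02 on a log scale (horizontal) for the 12 higher (left) and 12 lower (right) genes of smallest p (vertical), 1 point per line. Red circles are the 5 KMT2A-rearranged lines, blue squares 4 other lines and orange diamonds OCI-AML3. At MPEG1 the red circles lie at 10.2 CPM or more and all other points below 0.33 CPM, and at the lower genes the classes lie close together without overlapping.

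The HOXA cluster was expressed in the KMT2A-rearranged lines, but OCI-AML3 shared it and the lines used different parts of it. HOXA9 (chromosome 7, 27162438 to 27175180, GRCh38), a homeobox gene that blocks myeloid maturation when overexpressed, was at 99.0, 56.5, 88.3, 77.5 and 56.4 CPM in the KMT2A-rearranged lines. It was at 0.0181 in F-36P, 0 in HL-60, 2.04 in KASUMI-1, 1.93 in NB-4 and 59.3 in OCI-AML3. OCI-AML3 thus lay above MV-4-11 and THP-1, and the other 4 lines lay at 2.04 CPM or below. The log2 fold change was 2.58 ± 1.66 (adjusted p = 0.679), with an unadjusted exact two-sided permutation p of 0.0238 for log2(CPM + 1). HOXA10 was at 59.5, 63.4, 116, 48.2 and 55.9 CPM in the KMT2A-rearranged lines, and at 0.199, 0, 38.1, 65.1 and 159 CPM in the other lines, so it ranged widely among the other lines and was highest in OCI-AML3. The annotated spans of HOXA9 and HOXA10 overlap, and the 2 genes share a readthrough transcript. Reads of the shared part may therefore be missing from their counts or misplaced between them.

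The genes before HOXA9 in the cluster divided the KMT2A-rearranged lines themselves. HOXA7 was at 18.7 in MOLM-13, 0 in MV-4-11, 22.0 in MONO-MAC-6, 34.1 in NOMO-1 and 1.62 in THP-1, and at 0 to 0.776 CPM in the other lines (adjusted p = 0.539). HOXA3 (12.4, 0.0501, 14.3, 16.6 and 0.389 CPM) and HOXA4 (1.79, 0.0334, 2.73, 2.38 and 0.406 CPM) showed the same split in the same order of lines. MV-4-11, with its AFF1 fusion, and THP-1 were thus low at the genes where MOLM-13, MONO-MAC-6 and NOMO-1 were high. Of the 11 HOXA genes, all tested, 2 had an unadjusted p below 0.05 and were higher, 0 were lower, and the median log2 fold change was 1.83. Over all tested genes 4.45% were higher at that limit and 3.99% lower. No HOXA gene separated the classes. In the HOXB cluster 2 of 10 genes passed the filter on low counts, with a median log2 fold change of -1.12, and in the HOXC and HOXD clusters 1 of 18 did.

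The partners of HOX proteins behaved differently from each other. MEIS1, which binds DNA with HOXA9, was at 73.1, 82.6, 73.2, 58.4 and 0.186 CPM, so that it was nearly absent from THP-1, while OCI-AML3 had 37.3 CPM and the other 4 lines 0.669 CPM or less (adjusted p = 0.691). PBX3, the third protein of that complex, separated the classes, at 129, 114, 262, 90.1 and 163 CPM against 42.4, 15.02, 0.0179, 4.84 and 19.96 CPM, with F-36P the highest of the other lines (log2 fold change 3.21 ± 1.12, adjusted p = 0.54).

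Of 19 genes listed as targets of KMT2A fusions outside the HOX clusters, 18 were tested. Of these, 7 had an unadjusted p below 0.05 and were higher, 0 were lower, 4 separated the classes from above, and 17 had a log2 fold change above 0 (beside 48.0% of all tested genes). Over all tested genes 4.45% were higher at that limit and 1.12% separated the classes from above. The median log2 fold change was 0.98. The list was chosen with results of these lines known and was not tested as a set. FLT3, the receptor tyrosine kinase of early progenitors, was at 592 in MOLM-13, 617 in MV-4-11, 2927 in MONO-MAC-6, 69.0 in NOMO-1 and 84.9 in THP-1, and at 0 in F-36P, 38.5 in HL-60, 7.95 in KASUMI-1, 5.52 in NB-4 and 46.1 in OCI-AML3. MONO-MAC-6 was far above the rest of its class, and NOMO-1 and THP-1 lay nearest to the other lines, of which OCI-AML3 was highest. CSPG4, the proteoglycan NG2 used in the clinic to recognise KMT2A-rearranged blasts, was at 58.4, 165, 40.3, 1.48 and 24.7 CPM in the KMT2A-rearranged lines and 0.145, 0, 0, 1.23 and 0.194 CPM in the other lines (log2 fold change 7.52 ± 1.76, adjusted p = 0.477). NOMO-1 was the exception, within 1 CPM of NB-4. CPEB2, a translation regulator, was at 52.9, 77.0, 85.4, 49.3 and 55.3 CPM against 0.0724, 6.42, 7.61, 5.66 and 17.1 CPM.

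The other targets overlapped. JMJD1C, a histone demethylase family member, was at 120.3 to 284 CPM against 46.5 to 124 CPM, with MV-4-11 below KASUMI-1. MBNL1, a splicing regulator, was at 500.0 to 913 against 212 to 623 CPM, with OCI-AML3 above NOMO-1. MYB, a transcription factor of progenitors, was at 476 to 691 against 282 to 534 CPM, with NOMO-1 below HL-60 and NB-4. MEF2C was at 265, 187, 52.7, 128 and 340.1 CPM against 215, 0, 132, 2.62 and 61.2 CPM (adjusted p = 0.827), and CDK6, the cyclin D-dependent kinase, at 407 to 629 against 24.6 to 725 CPM (adjusted p = 0.744), where KASUMI-1 held the highest value of all 10 lines.

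KMT2A itself, the rearranged gene (chromosome 11, 118436456 to 118526832, GRCh38), had lower counts in the rearranged lines. It was at 74.2 in MOLM-13, 216 in MV-4-11, 172 in MONO-MAC-6, 93.0 in NOMO-1 and 88.7 in THP-1, and at 264, 304, 301, 285 and 211 CPM in the other lines. The log2 fold change was -1.08 ± 0.30 (adjusted p = 0.535, unadjusted exact two-sided permutation p = 0.0159). MV-4-11 lay above OCI-AML3, and the other 4 KMT2A-rearranged lines lay below all 5 other lines. A count over the whole gene cannot tell reads of the fusion transcript from reads of the intact allele. MEN1, which encodes menin, the cofactor that KMT2A fusions need, separated the classes from below, at 78.2, 69.9, 78.3, 60.4 and 52.3 CPM against 115, 84.9, 88.0, 104 and 99.0 CPM (log2 fold change -0.53 ± 0.17, adjusted p = 0.535). Of the 25 genes of the KMT2A complex and its fusion partners, all tested, these were the 2 with an unadjusted p below 0.05, both lower, and the median log2 fold change was -0.17. Over all tested genes 3.99% were lower at that limit and 0.744% separated the classes from below.

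**Figure D3:**
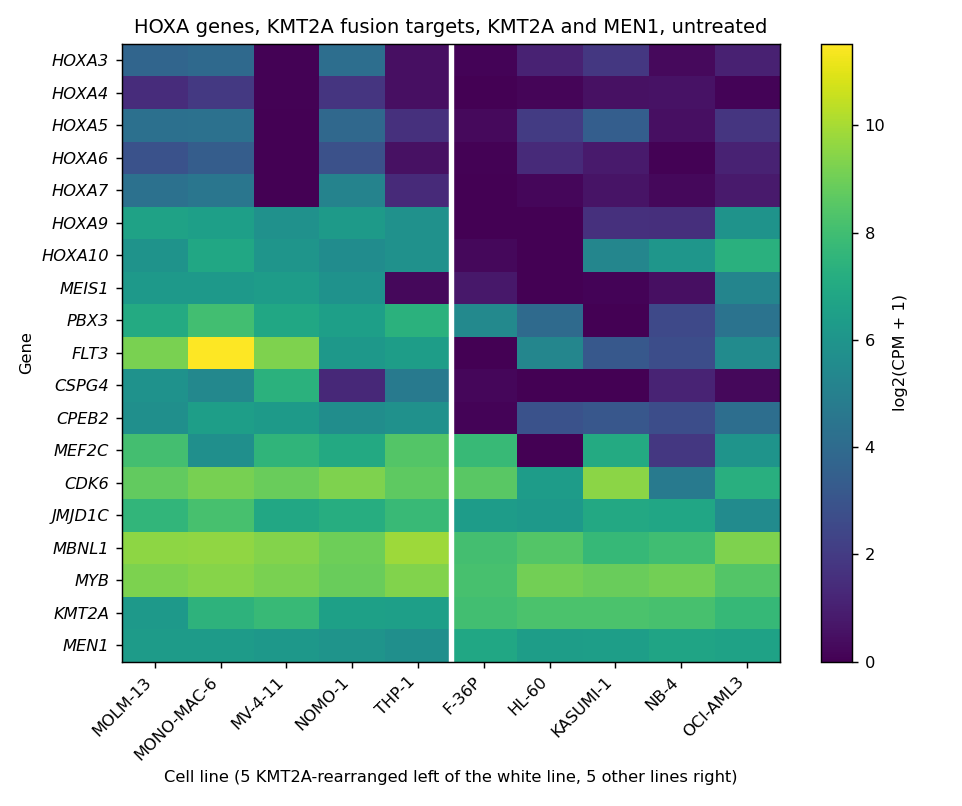
log2(CPM + 1), shown by color, for HOXA genes, KMT2A fusion targets, KMT2A and MEN1 (rows) in the 10 untreated lines (columns). Within the class, MV-4-11 is dark at HOXA3 to HOXA7, and THP-1 is also dark at HOXA3, HOXA4 and HOXA7, and at MEIS1. OCI-AML3 is bright at HOXA9, HOXA10 and MEIS1 among the other lines.

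More monocyte genes lay higher than lower in the KMT2A-rearranged lines (24 of 32 tested had a log2 fold change above 0, beside 48.0% of all tested genes). Of 40 listed markers 32 were tested, 9 had an unadjusted p below 0.05 and were higher, 0 were lower, 1 separated the classes, and the median log2 fold change was 1.22. Over all tested genes 4.45% were higher at that limit, 3.99% were lower and 1.12% separated the classes from above. The summed level of the 40 was 1239 to 6937 CPM in the KMT2A-rearranged lines and 552.2 to 2319 CPM in the other lines, with overlapping ranges. A single gene can make up much of such a sum, as LYZ did at 4079 CPM in MONO-MAC-6. CCR2, the chemokine receptor of classical monocytes, was at 125, 129.8, 72.3, 48.1 and 280.3 CPM against 0, 0.482, 9.67, 2.56 and 32.5 CPM. LYZ, lysozyme, was at 1869.8, 318, 4079, 479.8 and 423 CPM against 169.5, 2.64, 58.6, 24.2 and 405 CPM, and OCI-AML3 lay above MV-4-11. ITGAX (CD11c) was at 8.91 to 96.6 against 0.597 to 9.46 CPM (log2 fold change 3.58 ± 0.88, adjusted p = 0.504), with MV-4-11 below NB-4. ITGAM (CD11b) was led by NOMO-1, at 215 CPM, and was at 3.83 CPM in MV-4-11. The alarmin genes S100A8 and S100A9 were highest in MONO-MAC-6 and NOMO-1. S100A9 was at 7.97, 0.267, 1219.9, 523 and 32.5 CPM in the KMT2A-rearranged lines and 0.0181 to 16.5 CPM in the other lines, and S100A8 at 9.71, 0.15, 461, 191 and 16.6 CPM against 0 to 7.51 CPM.

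In bulk RNA, fewer cells of a kind and less RNA per cell cannot be told apart. The levels of other monocyte markers varied within the class. CD14, the lipopolysaccharide coreceptor, was at 0.236, 0.267, 23.3, 0.271 and 7.27 CPM, so that it was above 1 CPM in MONO-MAC-6 and THP-1 of the KMT2A-rearranged lines and in OCI-AML3 (5.24 CPM) of the others. CSF1R, the receptor of macrophage colony stimulating factor, was at 51.9, 46.2, 4.54, 12.5 and 182 CPM against 0.488, 0.133, 20.4, 7.11 and 17.5 CPM (adjusted p = 0.607), with MONO-MAC-6 below KASUMI-1, NB-4 and OCI-AML3. CD86, a costimulatory ligand, was at 0.828 to 30.9 against 0.0682 to 2.81 CPM, CTSS, cathepsin S, at 45.03 to 197 against 20.1 to 70.8 CPM, and LST1 at 16.03 to 60.5 against 0.805 to 19.0 CPM.

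Of the 15 azurophil granule markers 13 were tested, 0 had an unadjusted p below 0.05, 0 separated the classes, and the median log2 fold change was 0.57. MPO, myeloperoxidase, was at 7058 CPM in HL-60, 27604 in KASUMI-1 and 15637 in NB-4, but at 0.977 in F-36P and 3.01 in OCI-AML3. Among the KMT2A-rearranged lines it was at 1914 CPM in NOMO-1 and at 9.38 to 73.2 CPM in the other 4 (log2 fold change -4.61 ± 2.40, adjusted p = 0.623). ELANE, neutrophil elastase, was at 113, 15.8, 124, 0 and 132 CPM against 0, 0.0166, 213, 0.0341 and 65.1 CPM. Of 11 markers of secondary granules and neutrophils 2 were tested. Their log2 fold changes went opposite ways, 1 above 0 and 1 below, with a median of -0.69. The 1 above 0 was CXCR2, the interleukin-8 receptor, which separated the classes, as 1.12% of all tested genes did from above. It was at 18.7, 13.8, 10.3, 23.1 and 21.6 CPM against 0, 6.27, 1.61, 1.62 and 6.87 CPM.

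Several stem and erythroid genes were high in KASUMI-1 or F-36P alone. CD34 was at 602 CPM in KASUMI-1 and 31.4 CPM in F-36P and at 0.462 CPM or less elsewhere, and it did not pass the filter. KIT, the stem cell factor receptor, was at 985 CPM in KASUMI-1 and 32.5 CPM in NOMO-1. ERG was the stem cell gene of smallest p, at 0.0674, 0.0836, 0.128, 0.207 and 0.693 CPM against 11.3, 0.565, 122.7, 0 and 15.3 CPM (log2 fold change -6.98 ± 2.01, adjusted p = 0.535), and NB-4 was at 0. Of 26 stem and progenitor markers 14 were tested, with 0 higher and 1 lower at an unadjusted p below 0.05 and a median log2 fold change of -0.71. For this and the next 2 lists, the shares of all tested genes at that limit were 4.45% higher and 3.99% lower, and 1.12% separated the classes from above. Of 32 erythroid and megakaryocyte markers 9 were tested and 2 were lower, KLF1 and ANK1, which were at 233 and 626 CPM in F-36P and at 3.58 CPM or less in every other line. For KLF1 the log2 fold change of -6.71 became -0.69 without F-36P. The summed level of the 32 was 508.7 to 1152 CPM in the KMT2A-rearranged lines, 11590 CPM in F-36P and at most 917.1 CPM in the remaining other lines. Outside F-36P these sums come mostly from markers other than KLF1 and ANK1, so they do not measure erythroid expression. GATA1, the erythroid master regulator, was at 256 CPM in F-36P and 14.7 CPM in NOMO-1. Among 21 lymphoid markers 9 were tested and 2 were higher, RAG1 (0.284 to 2.77 against 0.0682 to 0.483 CPM) and IL7R. IL7R, the interleukin-7 receptor, separated the classes at 43.3, 8.29, 11.2, 10.2 and 12.2 CPM against 0.253, 0.415, 0.0358, 0.017 and 3.30 CPM.

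Transcription factors of the myeloid lineage were expressed in both classes. Of 43 listed factors 39 were tested, 4 had an unadjusted p below 0.05 and were higher, 3 were lower, and the median log2 fold change was 0.27. Over all tested genes 4.45% were higher at that limit, 3.99% were lower and 1.12% separated the classes from above. SPI1, which encodes PU.1, was at 138 to 178 CPM in the KMT2A-rearranged lines and 107 to 174 CPM in the other lines, with OCI-AML3 second to MONO-MAC-6. IRF8 was at 564, 559, 241, 108 and 846 CPM, at 1352 CPM in OCI-AML3 and at 12.9 CPM or less in the other 4 lines (adjusted p = 0.936). CEBPA was at 110.5 to 577 CPM against 0.561 to 421 CPM (adjusted p = 0.854), and CEBPE, of late granulocytes, was highest in HL-60 at 295 CPM. FOS, an immediate early gene, separated the classes at 34.6, 39.5, 103, 20.9 and 64.7 CPM against 0.995, 1.31, 5.87, 5.18 and 17.8 CPM (log2 fold change 3.07 ± 0.82, adjusted p = 0.535). ID2, an inhibitor of E proteins, also did so, at 66.3 to 127 against 3.08 to 64.2 CPM, with OCI-AML3 within 3 CPM of MOLM-13. BCL6, a repressor, was at 1.32 to 24.8 against 0.524 to 4.01 CPM. MYC was lower, at 534, 362, 290.5, 284 and 156 CPM against 809, 979, 951, 646 and 387 CPM (log2 fold change -1.21 ± 0.35, adjusted p = 0.535), with MOLM-13 above OCI-AML3, and LYL1 was at 28.9 to 94.0 against 40.4 to 297 CPM.

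Several receptors and innate immune genes were higher in the KMT2A-rearranged lines at an unadjusted p below 0.05. Of 23 growth factor and cytokine receptors 19 were tested, 4 had an unadjusted p below 0.05 and were higher (4.45% of all tested genes), 0 were lower, and FLT3 and IL10RA separated the classes from above (1.12% of all). IFNGR1, the ligand-binding chain of the interferon gamma receptor, was at 72.6 to 154 against 38.2 to 84.7 CPM, with MV-4-11 below F-36P (log2 fold change 1.19 ± 0.28, adjusted p = 0.477). IL10RA was at 12.03, 10.6, 7.70, 9.42 and 10.2 CPM against 0, 0.249, 0.501, 2.39 and 6.998 CPM, and its partner chain IL10RB at 32.6 to 106 against 20.6 to 61.0 CPM. PDGFRB was at 0.385 to 5.86 against 0.0895 to 1.05 CPM. The receptor genes CSF2RA and IL3RA, which lie on the pseudoautosomal part of the sex chromosomes, are listed at 0 in all 30 libraries. The copies of such genes on Y also held 0 reads, so a 0 here does not show that a receptor was absent. Of 33 Toll-like receptor and inflammasome genes 25 were tested, 21 had a log2 fold change above 0 (48.0% of all tested genes), and 4 had an unadjusted p below 0.05 and were higher. The 4 were the adaptor PYCARD (36.6 to 101 against 7.71 to 61.1 CPM), the protease CASP1 (28.9 to 60.6 against 1.47 to 35.8 CPM), LY96 (0.167 to 2.29 against 0 to 0.648 CPM) and TLR7 (0.0501 to 1.55 against 0 to 0.181 CPM), and OCI-AML3 lay within the KMT2A-rearranged range for PYCARD and CASP1.

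Antigen presentation genes did not separate the classes. Of 14 MHC class II genes 9 were tested, 0 had an unadjusted p below 0.05, and the median log2 fold change was -0.89. HLA-DRA was at 8.34, 12.02, 4.61, 42.3 and 0.76 CPM in the KMT2A-rearranged lines, at 121 CPM in F-36P and at 5.26 CPM or less in the other 4, with 0 reads in HL-60 and NB-4. CIITA, the transactivator of the class II genes, was at 12.5, 32.0, 9.66, 33.4 and 0.98 CPM against 125, 0.0166, 15.98, 0 and 1.36 CPM. The sign of both fold changes turned to positive without F-36P.

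In the lists for cell death, drug response, interferon response and growth, 1 or 2 genes each were higher at an unadjusted p below 0.05, beside 4.45% of all tested genes, and 0 were lower. Of 17 BCL2 family genes 15 were tested and BAX (76.5 to 166 against 51.1 to 104 CPM) was the 1 with an unadjusted p below 0.05. BCL2 was at 119 to 232 against 52.5 to 220.0 CPM (adjusted p = 0.736), BCL2A1 at 0 to 16.1 against 0.0895 to 5.71 CPM, and BCL2L1, which encodes BCL-XL, at 309 CPM in F-36P and 22.5 to 46.6 CPM in the KMT2A-rearranged lines. Of 22 genes for etoposide targets, repair and transport 19 were tested and CDKN1A was the 1 that was higher, at 244, 135, 30.4, 23.5 and 71.1 CPM against 8.07, 0.216, 5.07, 2.61 and 36.9 CPM. TOP2A, the target of etoposide, was at 547 to 891 against 139 to 755 CPM (adjusted p = 0.78). SLFN11, which arrests damaged replication forks, was at 152, 17.9, 206, 135 and 138 CPM against 8.03, 178, 0, 165 and 103 CPM, so MV-4-11 was the low line of its class. Of 28 interferon-stimulated genes tested 2 were higher, MX1 (0.635 to 8.52 against 0.443 to 1.05 CPM) and XAF1, which separated the classes at 53.1, 45.8, 34.5, 50.6 and 31.9 CPM against 2.17, 0.565, 6.12, 0.972 and 29.2 CPM. Of 24 proliferation genes, all tested, CCNE2 was higher, at 37.1 to 82.0 against 7.16 to 45.7 CPM, and the median log2 fold change was 0.13.

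The start regions of the separated genes were searched for 3 sequences, GAGGAAGT (bound by PU.1), TGATTTAT (bound by HOX and MEIS proteins together) and TTGCGCAA (bound by C/EBP proteins), on both strands. RefSeq promoters on GRCh38.p14, from 250 bases before to 50 bases after the start, were found for 120 of the 177 higher and 87 of the 118 lower genes. The PU.1 sequence was in 7 of the 120 higher promoters (5.83%), 2 of the 87 lower ones (2.30%) and 2.82% of those of the 10862 tested genes found. The HOX and MEIS sequence was in 3 of 120 (2.5%), 0 of 87 and 0.341%. The C/EBP sequence was in 0 of 120, 0 of 87 and 0.221%. In all 27305 promoters the shares were 2.54%, 0.883% and 0.128%. A match is a description of these letters in this window and was not tested. The median number of CG dinucleotides was 21 in the higher promoters, 28 in the lower ones and 26 in those of tested genes. Of the 24 genes of smallest p, 18 had a promoter in the table and 0 held any of the 3 sequences.

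The promoters of 4 higher genes with a match follow, chosen after their values were seen because they encode cell surface or secreted proteins of immune cells. Capitals mark the match, which lies on the opposite strand, so that ACTTCCTC and ATAAATCA are printed. TYROBP, the DAP12 adaptor of myeloid receptors, was at 86.8, 44.6, 32.1, 44.5 and 79.7 CPM against 28.6, 2.73, 0.483, 8.90 and 10.0 CPM. FCMR, the IgM receptor, was at 3.71, 1.40, 1.45, 6.65 and 0.203 CPM against 0 to 0.129 CPM. CCL23, a chemokine of monocytes, was at 6.29, 6.40, 5.16, 7.30 and 5.37 CPM against 0 to 1.57 CPM. SLAMF1, a receptor of activated leukocytes, was at 4.70, 1.14, 1.86, 1.23 and 1.81 CPM against 0 to 0.226 CPM. The first 3 hold the PU.1 sequence and SLAMF1 the HOX and MEIS sequence.
TYROBP (chr19:35908246-35908545, minus strand): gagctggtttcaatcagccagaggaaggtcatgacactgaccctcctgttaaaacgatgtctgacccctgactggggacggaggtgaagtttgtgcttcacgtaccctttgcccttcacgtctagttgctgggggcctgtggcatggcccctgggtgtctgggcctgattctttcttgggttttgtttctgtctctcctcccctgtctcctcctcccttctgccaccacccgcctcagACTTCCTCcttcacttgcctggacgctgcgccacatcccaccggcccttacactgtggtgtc
FCMR (chr1:206923147-206923446, minus strand): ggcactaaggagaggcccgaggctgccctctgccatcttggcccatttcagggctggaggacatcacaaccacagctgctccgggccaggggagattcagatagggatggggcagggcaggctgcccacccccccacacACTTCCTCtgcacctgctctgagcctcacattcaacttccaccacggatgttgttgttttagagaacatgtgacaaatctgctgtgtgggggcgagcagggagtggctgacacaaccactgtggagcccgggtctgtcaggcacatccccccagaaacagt
CCL23 (chr17:36017923-36018222, minus strand): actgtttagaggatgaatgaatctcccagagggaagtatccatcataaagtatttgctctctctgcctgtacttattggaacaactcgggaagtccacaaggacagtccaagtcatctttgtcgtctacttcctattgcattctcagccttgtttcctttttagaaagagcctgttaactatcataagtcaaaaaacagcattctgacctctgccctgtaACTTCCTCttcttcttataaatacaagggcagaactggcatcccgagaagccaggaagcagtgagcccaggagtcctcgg
SLAMF1 (chr1:160646995-160647294, minus strand): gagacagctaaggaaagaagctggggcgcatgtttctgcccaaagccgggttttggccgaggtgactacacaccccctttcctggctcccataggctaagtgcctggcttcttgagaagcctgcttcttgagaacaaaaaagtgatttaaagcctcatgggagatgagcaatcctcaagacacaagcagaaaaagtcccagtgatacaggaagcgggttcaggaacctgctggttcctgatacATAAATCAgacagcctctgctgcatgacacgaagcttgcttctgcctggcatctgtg

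The lower separated genes were unevenly placed in the genome. On chromosome 20, 17 of 441 tested genes lay below in all 5 KMT2A-rearranged lines (3.85%), beside 0.744% of all tested genes, and these were 14.4% of the 118 lower genes while the chromosome held 2.78% of the tested genes. They were spread from position 325552 to 63956416 (GRCh38) and included AHCY, ASXL1, PLCG1 and VAPB, with log2 fold changes between -0.35 and -1.36. Chromosome 12 held 19 of 861 (2.21%), chromosome 10 12 of 611 (1.96%) and chromosome 7 12 of 799 (1.5%). The higher separated genes reached at most 2.04%, on chromosome 8 (11 of 538), beside 1.12% of all. The median shift of the chromosome 20 genes from the median of the 10 lines, on log2(CPM + 1), ran from -0.18 in THP-1 to 0.03 in MOLM-13 among the KMT2A-rearranged lines and from -0.02 in KASUMI-1 to 0.18 in NB-4 among the others. Chromosome copy number was not measured in these data, and its part in the result was not tested.

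OCI-AML2, which was in neither class, lay on the KMT2A-rearranged side of the gap at 112 of the 177 higher genes (63.3%), on the other side at 48 (27.1%) and within the gap at 17. At the 118 lower genes it lay on the KMT2A-rearranged side at 61 (51.7%) and on the other side at 40 (33.9%). It was at 68.6 CPM for HOXA9, 67.0 CPM for MEIS1, 105 CPM for MPEG1 and 346 CPM for CCR2, for MPEG1 and CCR2 above all 5 KMT2A-rearranged lines and for the other 2 within their range, and at 7.20 CPM for CPEB2 and 1.58 CPM for IL7R, within the range of the other lines.

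The separation was partly kept in the libraries of the same 10 lines treated for 24 hours with etoposide, at a concentration that differed by line. After treatment 105 tested genes lay above in all 5 KMT2A-rearranged lines (0.662%) and 100 below (0.631%). Of the 177 genes above before treatment, 53 were also above after it (29.9%, and 50.5% of the 105). Of the 118 below, 26 were also below (22.0%, and 26.0% of the 100). Of these 295 genes, 0 lay the opposite way in all lines after etoposide. MPEG1, CCNA1, PBX3, CPEB2 and IL10RA separated the classes from above in both states, and TNKS1BP1, PPRC1 and NPM3 from below. FLT3, CSPG4, CCR2, IL7R and FOS overlapped after etoposide. Untreated and treated libraries come from the same lines, so the treated libraries are not independent support.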

How the data were processed

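Poly(A) RNA of 10 untreated AML cell lines was sequenced with a stranded kit, in 3 libraries per line. The deposited values are counts of reads per gene, 1 column per library and not normalized, which the authors made with STAR 2.5.3a (gene counts) on GRCh38.p7 with gencode release 25. The sources used here do not state which strand setting the deposited counts follow. Of 58037 identifiers, 45 copies on the pseudoautosomal part of Y, with 0 reads, were left out. Names and positions came from gencode release 44 (GRCh38) by identifier, for 56948 of the 57992 kept. Replicate libraries all differed by more than sampling noise (chi-square per degree of freedom at least 2.30).

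Here the 3 libraries of a line were summed, since libraries of 1 line are not replicates of a class. Genes were kept by filterByExpr (minimum count 10, minimum total 15), normalized by TMM and compared, 5 lines against 5, with the quasi-likelihood test of edgeR 4.0.16 in R 4.3.3 with Benjamini-Hochberg adjustment. A gene counted as called if its adjusted p was under 0.05 and it differed by more than 2-fold. Standard errors are those of the fit. A class was called separated at a gene where all 5 of its lines lay on 1 side of the 5 others in CPM. With 10 lines an exact two-sided permutation test, on log2(CPM + 1) over 252 splits, gives no p below 0.00794. After Benjamini-Hochberg adjustment over all tested genes, the smallest p of this permutation test was 0.427. A count of 0 over the 3 libraries of a line allows up to 0.0481 to 0.0532 CPM (3 reads), for counting error only. The study's methods speak in general of 3 biological replicates, and the labels do not say whether the libraries came from separate cultures.

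Because 0 genes were called, the genes named were the 12 of smallest p in each direction with a mean of at least 1 CPM (Y-linked genes left out), the listed genes whose classes were separated, listed genes chosen for their role, and those said to have been chosen after their values were seen. Listed genes with an unadjusted p below 0.05 were added after the values were seen. The classes, gene lists and rules were chosen with earlier results of these data known. Alternatives used DESeq2 1.42.0 and limma 3.58.1. Tables and plots used Python 3.11.15 with pandas 2.3.3, numpy 2.4.6 and matplotlib 3.10.9.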

Additional observations from a re-analysis of the deposited data

Results flagged for a closer look

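Single lines stood far from the rest of their class at 21 of 177 combinations of a named gene and a class, where the gap to the nearest line, on log2(CPM + 1), exceeded Dixon's limit of 0.71 of the range of the 5 lines. Chance flags about 1 in 20 groups of genes not chosen by their values. Some of the named genes were added after their values were seen, so the 21 cannot be set against that rate. AFF3 and TNS3 were called with OCI-AML3 left out, so their flags for that line are no separate result. OCI-AML3 was the highest of the other lines for HOXA9 (59.3 CPM), MEIS1 (37.3 CPM), CD14 (5.24 CPM), S100A8 (7.51 CPM), AFF3 (37.7 CPM) and TNS3 (150.2 CPM). F-36P was the highest of them for GATA1 (256 CPM), KLF1 (233 CPM), ANK1 (626 CPM) and BCL2L1 (309 CPM), KASUMI-1 for KIT (985 CPM), HL-60 for ANXA2R (5.32 CPM) and NB-4 for BCL2A1 (5.71 CPM), and HL-60 was the lowest for RBKS (1.11 CPM).

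Within the KMT2A-rearranged lines, THP-1 was the lowest for MEIS1 (0.186 CPM) and AFF3 (20.8 CPM), and MV-4-11 for SLFN11 (17.9 CPM) and ANXA2R (4.14 CPM, with the other 4 at 21.8 to 40.3 CPM). NOMO-1 was the highest for GATA1 (14.7 CPM) and BCL2L1 (46.6 CPM), and MOLM-13 for IL7R (43.3 CPM).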

How the results depend on the processing

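The count of called genes stayed at 0 under DESeq2's size factors, library size alone, both other filters, the robust fit, no fold minimum and without replicate 1, 2 or 3 of every line. The DESeq2 test called 191 genes (46 of them lower) and limma on 1 value per line called 1, MPEG1. Leaving out 1 line at a time gave 0 to 8 genes, and the 8 came without OCI-AML3, all higher: AFF3, ATP10A, HOXA10-AS, ITGA7, MBNL1-AS1, MPEG1, SASH1 and TNS3. AFF3 was at 20.8 to 81.3 CPM in the KMT2A-rearranged lines, 37.7 CPM in OCI-AML3 and 0.0499 CPM or less in the other 4, and TNS3 at 76.3 to 147, 150.2 and 0.0511 CPM or less. With HL-60 and NB-4 as the other lines, which had the same serum share, 34 genes were called (33 higher, 1 lower). This setting, named equal serum below, also leaves out F-36P, KASUMI-1 and OCI-AML3, so serum and line cannot be told apart in it. With 30 libraries in limma and the line as a random effect (correlation 0.931), 569 were called. With a replicate block added, 515 were called. These 2 fits take their residual degrees of freedom from libraries, not lines. Deviations from the line means correlated between same-numbered libraries of different lines with a median of 0.087 (-0.846 to 0.767, 67 of 135 pairs above 0.1) and between differently numbered ones with a median of -0.046 (80 of 270 above 0.1). Since not every same-numbered pair exceeded 0.1, the numbers were not taken to pair the libraries. The number of separated genes was 260 to 402 under other scalings and filters and 268 to 292 without replicate 1, 2 or 3. By construction it was higher with fewer lines: 389 to 933 with 1 line left out (933 without OCI-AML3, and above 1.5 times the count without any line but MOLM-13 or THP-1), and 3161 with HL-60 and NB-4 alone. Of 2360 alternative values of 99 named genes, 2183 kept their direction and their side of the threshold, 156 kept their direction and passed it, and 21 changed sign. KIT turned positive in the limma fits (0.24 each), without KASUMI-1 (3.98, with -6.34 as the lowest value without 1 line) and at equal serum (6.91). HLA-DRA did so in the limma fits (2.86 each), without F-36P (3.35, lowest -1.98), at equal serum (12.67) and on log2(CPM + 1) (1.21), and CIITA likewise (2.40 each, 2.02 with a lowest of -1.05, 10.72 and 1.20). At equal serum KLF1 was at 0.43, BCL2L1 at 0.05, TOP2A at -0.03 and SLFN11 at -0.41. The cause was not tested beyond what leaving out these lines shows.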
